A study of Homo sapiens with 12 samples.

Results

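The genes described here are 33 genes of the Fanconi anaemia and homologous recombination pathways, chosen by name from a written list. An array feature (probe set) annotated with that gene's symbol alone was found for 30 of the 33, and for each gene the probe set with the highest mean signal over the 12 arrays was used. All 30 passed the filter on dim genes, among 16110 genes tested of 19775 with such a probe set. FANCA, FANCD2 and BRCA2 were not analysed here. The arrays measured RNA from BxPC-3 and AsPC-1, established human pancreatic cancer cell lines, AsPC-1 having been derived from ascites. Both lines had been kept overnight in reduced serum before the experiment. In each line untreated cells were compared with cells given 1 µM PMA (phorbol 12-myristate 13-acetate, a phorbol ester that activates protein kinase C, dissolved in DMSO) for 4 h. The 4 groups, BxPC-3 untreated, BxPC-3 PMA, AsPC-1 untreated and AsPC-1 PMA, held 3 arrays each. Replicates 1, 2 and 3 came from passages 7, 9 and 11 of BxPC-3 and from passages 8, 10 and 12 of AsPC-1. The sources used here do not say whether the untreated cells received DMSO. Each line stands for 1 tumour, and 1 dose and 1 time were tested.

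The Fanconi pathway repairs DNA interstrand crosslinks. A core complex, with FANCL as its ubiquitin ligase subunit, attaches ubiquitin to the FANCD2 and FANCI pair at a stalled replication fork, and the broken chromosome that results is repaired by homologous recombination. In that reaction DNA ends are resected by MRE11, RAD50, NBN and EXO1, the BRCA1-BARD1 and PALB2-BRCA2 complexes prepare the ends for strand exchange, and BLM with RMI1 takes apart the joined intermediates under the control of ATM and ATR kinases. Transcripts of many of these genes are more abundant in cells that replicate DNA, and PALB2, BRCA2 and ATM are known pancreatic cancer susceptibility genes.

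The deposited signals share a common scale, with a trimmed mean between 100.014 and 100.018 on every array. SMAD4, known to be deleted in BxPC-3, read 0.104 to 4.6 in that line and 111 to 214 in AsPC-1. The epithelial transcripts KRT18, KRT19 and EPCAM were at 1590 or above on every array. KRT8 read 758 to 1240 in BxPC-3 and 1990 to 5120 in AsPC-1, and CDH1 read 3060 to 5090 in BxPC-3 and 473 to 993 in AsPC-1. KRT7 was lower in AsPC-1 (56.9 to 224) than in BxPC-3 (2300 to 3360), and of the fibroblast markers LUM was high in AsPC-1 alone (1260 to 3400 against 22.8 to 70.8 in BxPC-3) and COL1A1 reached 158 in BxPC-3 and 8.55 in AsPC-1. Of the leukocyte markers PTPRC did not exceed 9.86 on any array, while CD3E read 8.96 to 25.3 and CD79A 15.3 to 76.2. AsPC-1 PMA replicate 1 stood apart: its mean correlation with the other arrays of its group was 0.921, against 0.945 to 0.978 for the other arrays. Results are therefore given with and without it. It enters the shared estimate of spread, so leaving it out also changes tests that do not use it as data.

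Promoter sequence is shown for 3 members whose fall after PMA passed the threshold (adjusted p under 0.05) in 1 of the lines, FANCF, PALB2 and RAD51AP1. The searched motifs that each upstream region holds are marked. The sequences are from RefSeq on GRCh38.p14 and run 5' to 3' on the gene's strand up to the base before the annotated transcript start. FANCF lies at chr11:22625824-22626001 on the minus strand, PALB2 at chr16:23641311-23641465 on the minus strand and RAD51AP1 at chr12:4538640-4538889 on the plus strand. The FANCF and PALB2 windows are shorter because they stop where the annotated span of the neighbouring genes GAS2 and DCTN5 begins. Capitals mark the motifs CCAAT (or its reverse complement ATTGG) and TTCCCGC (or its reverse complement GCGGGAA).
FANCF: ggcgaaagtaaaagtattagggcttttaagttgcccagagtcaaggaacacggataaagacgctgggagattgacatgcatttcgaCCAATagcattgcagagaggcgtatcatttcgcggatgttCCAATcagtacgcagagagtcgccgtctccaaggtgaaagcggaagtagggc
PALB2: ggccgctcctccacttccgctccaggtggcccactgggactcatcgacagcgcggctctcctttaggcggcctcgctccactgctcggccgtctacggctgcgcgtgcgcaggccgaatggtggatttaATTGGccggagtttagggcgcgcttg
RAD51AP1: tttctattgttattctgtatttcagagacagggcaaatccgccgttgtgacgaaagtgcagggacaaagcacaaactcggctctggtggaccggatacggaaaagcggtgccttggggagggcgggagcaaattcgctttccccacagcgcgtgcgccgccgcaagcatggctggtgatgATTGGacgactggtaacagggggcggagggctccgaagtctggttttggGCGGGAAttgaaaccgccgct

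FANCF holds CCAAT at positions -92 and -52 from the start, PALB2 holds ATTGG at -26, and RAD51AP1 holds GCGGGAA at -21 and ATTGG at -70. Over the 250 bases before the start, searched on both strands, the E2F-like letters TTCCCGC were present in 12 of the members' 38 windows, in 10 of the 27 genes with a window. They were present in 5.52% of all 35116 windows. CCAAT was in 18 of 38 member windows, in 14 of the 27 genes, and in 32.0% of all windows. Windows of the same gene can overlap and hold the same site, so the 38 are not independent. The letters TTGGCGC (2.56% of all windows) and the AP-1 site TGACTCA, known as a phorbol ester response element (4.2% of all windows), were in none of the 38. TTTGAA, the cell-cycle homology region, was in 3 of 38 and in 13.3% of all windows. The ATR and BARD1 windows held none of the 5 motifs.

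PMA lowered 4 of the 30 members in BxPC-3, the helicase and strand-exchange motor RAD54B, the dissolution factor RMI1, the BRCA2 partner PALB2 and the replication-stress kinase ATR, and raised none (12 lower and 0 higher at an unadjusted p under 0.05). Among all genes 3.40% fell and 2.61% rose (6.01% together) at the same threshold (adjusted p under 0.05 by limma, a linear model fitted over all genes). The direction was shared more widely than the calls: 28 of 30 members had a negative log2 difference, with a median of -0.43 against 0.00 for all genes tested. In 20 of 30 members all 3 treated arrays read below all 3 untreated arrays, and in none did they read above; among all genes 22.0% were separated downward and 17.0% upward. In bulk RNA a smaller share of cells expressing a gene and less RNA per cell cannot be told apart.

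RAD54B showed the largest fall. Its signals were 173, 154 and 123 in untreated BxPC-3 and 37.5, 20.8 and 34.7 after PMA, so that every treated array read far below every untreated one. The log2 difference was -2.19 ± 0.39 (SE, n = 3 against 3, limma adjusted p = 0.00586). ATR read 716, 654 and 914 untreated and 279, 296 and 324 after PMA. The ATR groups did not overlap either, with a log2 difference of -1.32 ± 0.22 (adjusted p = 0.00392). For the mean of its probe sets it was -1.08 (adjusted p = 0.0757). PALB2, which bridges BRCA1 and BRCA2, read 233, 267 and 291 untreated and 92.6, 119 and 99.6 treated, a log2 difference of -1.32 ± 0.26 (adjusted p = 0.00955). RMI1, a partner of BLM, read 513, 529 and 511 untreated and 199, 155 and 229 treated, with a log2 difference of -1.42 ± 0.35 (adjusted p = 0.031). The untreated RMI1 values lay close together and the treated ones did not reach them.

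Without BxPC-3 untreated replicate 3, 2 members were called, and PALB2 stood at -1.25 (adjusted p = 0.0562). In that fit 2.05% of all genes were called, against 6.01% with all arrays. RMI1 lost its call on leaving out any 1 of the 6 BxPC-3 arrays (adjusted p 0.0705 to 0.128). With the passage as a block 9 members were called lower, against 6.19% of all genes; without AsPC-1 PMA replicate 1, 12 were, against 9.3%. The 3'/5' signal ratio of ACTB, a measure of RNA integrity, was 2.56, 2.95 and 4.14 in the untreated and 1.84, 1.99 and 2.02 in the treated BxPC-3 arrays. The same ratio of GAPDH was 1.04, 1.06 and 1.12 untreated and 1.0, 1.07 and 1.02 treated. The part of RNA integrity in these results was not tested.

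The core complex had no called member among 7, although the groups of FANCF, the adaptor subunit, lay far apart. FANCF read 189.7, 188 and 197 untreated and 54.0, 60.5 and 46.3 after PMA, with no overlap. Its log2 difference of -1.79 ± 0.50 missed the threshold (adjusted p = 0.054); it passed when passage was blocked (adjusted p = 0.0273) and without AsPC-1 PMA replicate 1 (adjusted p = 0.000151). FANCI, the ubiquitinated partner of FANCD2, read 680, 705 and 649 untreated and 423, 354 and 541 treated (log2 difference -0.64 ± 0.18, adjusted p = 0.0563). By role the median log2 difference was -0.28 for the core complex, -0.62 for the BRCA1 and PALB2 group (4 genes), -0.39 for the strand-exchange mediators and motors (8 genes), -0.82 for resection and dissolution (6 genes) and -0.48 for the checkpoint kinases (4 genes). The members with a positive difference, FANCC and RAD51D, stood at 0.10 and 0.15.

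**Figure D1:**
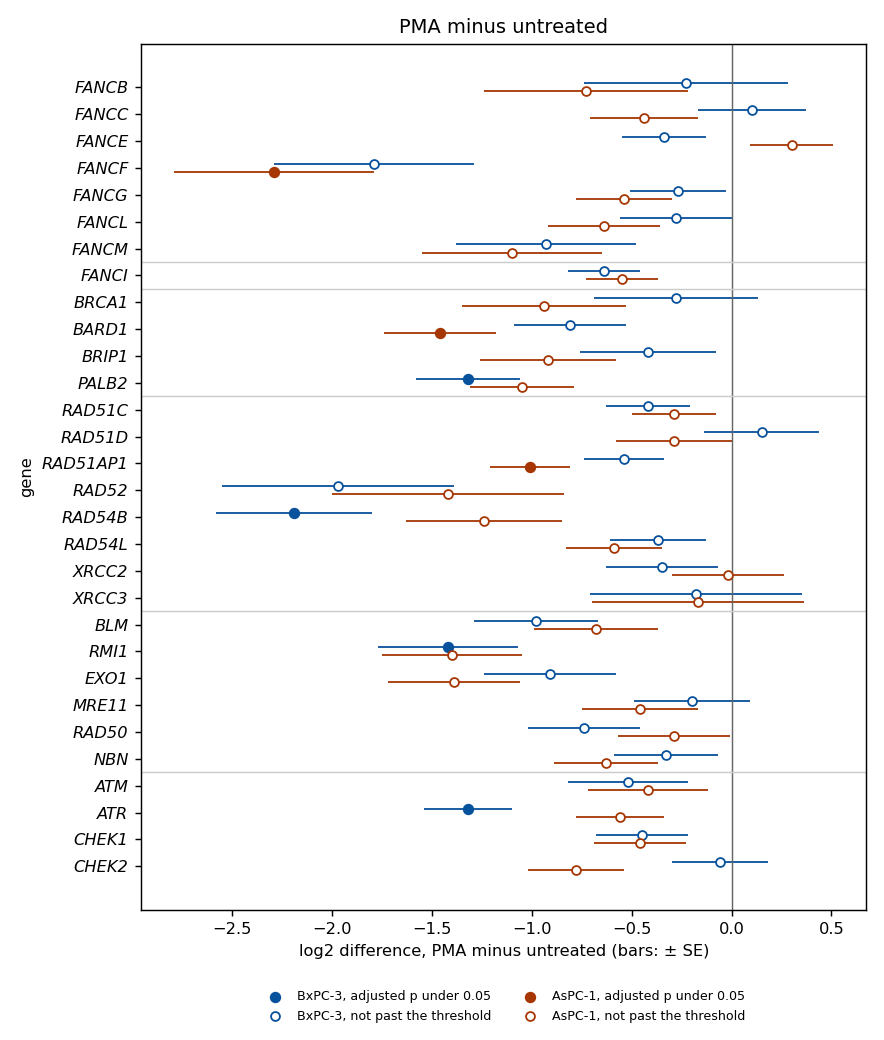
Log2 difference of signal, PMA minus untreated, for the 30 measured members (vertical axis, ordered by role) in BxPC-3 and AsPC-1, with bars of ± SE; filled points passed an adjusted p under 0.05. Nearly all points lie left of 0, with 4 filled in BxPC-3 and 3 in AsPC-1.

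In AsPC-1, PMA lowered 3 of the 30 members, FANCF, BARD1 (the ubiquitin ligase partner of BRCA1) and RAD51AP1 (a strand-exchange accessory protein), and raised none (19 lower and 0 higher at an unadjusted p under 0.05). Among all genes 0.732% fell and 1.21% rose (1.94% together). A negative log2 difference was seen in 29 of 30 members, FANCE being the exception at 0.30, and the members' median was -0.64 against -0.10 for all genes. The groups did not overlap, with PMA lower, in 12 of 30 members and were separated upward in none, against 8.44% and 6.06% of all genes.

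FANCF read 147, 164 and 169 in untreated AsPC-1 and 99.4, 22.8 and 11.03 after PMA. Every treated array was below the untreated ones, with replicate 1 far above the other treated arrays. The log2 difference was -2.29 ± 0.50 (limma adjusted p = 0.0381; -1.70 and 0.067 for the mean of its probe sets), and -3.10 ± 0.25 without AsPC-1 PMA replicate 1 (adjusted p = 2.34e-06). BARD1 read 153, 241 and 215 untreated and 94.6, 60.3 and 61.7 treated, without overlap; its log2 difference was -1.46 ± 0.28 (adjusted p = 0.023), and -1.66 ± 0.27 without that array (adjusted p = 0.000715). RAD51AP1 was the evenest of the 3, at 389.9, 440.4 and 392 untreated and 216, 200 and 187 treated. Its log2 difference was -1.01 ± 0.20 (adjusted p = 0.0241), and -1.06 ± 0.20 without that array (adjusted p = 0.00206). The single-strand annealing factor RAD52, a dim probe set, read 46.4, 26.3 and 36.9 untreated and 24.7, 17.1 and 2.46 treated. The RAD52 groups did not overlap, but the log2 difference of -1.42 ± 0.58 did not pass (adjusted p = 0.234). It was -1.88 without replicate 1 of the PMA group (adjusted p = 0.0374). The still dimmer RAD52 probe sets gave -1.03 ± 0.61, 0.01 ± 0.64 and -0.30 ± 0.64 with all arrays.

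These calls depended on single arrays. No member was called without AsPC-1 untreated replicate 2, untreated replicate 3, PMA replicate 2 or PMA replicate 3, with 15, 13, 11 and 10 members at an unadjusted p under 0.05 in the same limma test. In those fits BARD1 stood at -1.33 to -1.41 (adjusted p 0.0957 to 0.122) and RAD51AP1 at -0.95 to -1.04 (adjusted p 0.0792 to 0.122). FANCF kept its call in 1 of 12 such fits, that without AsPC-1 PMA replicate 1, and had adjusted p of 0.0606 to 0.174 in the other 11. RAD51AP1 also missed the threshold when each array was centred on its median (-0.79, adjusted p = 0.0919).

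Without AsPC-1 PMA replicate 1 the picture was broader: 18 of 30 members fell, against 13.6% of all genes, and the members' median was -0.87. All 4 measured genes of the BRCA1 and PALB2 group were among them, with BRCA1 at -1.49 ± 0.30 (adjusted p = 0.00306) and the helicase BRIP1 at -1.32 ± 0.28 (adjusted p = 0.00436). The exonuclease EXO1 stood at -1.78, RMI1 at -1.93, RAD54B at -1.79 and the core complex translocase FANCM at -1.76, all past the threshold. With all arrays and the passage as a block 10 members were lower, against 2.84% of all genes.

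**Figure D2:**
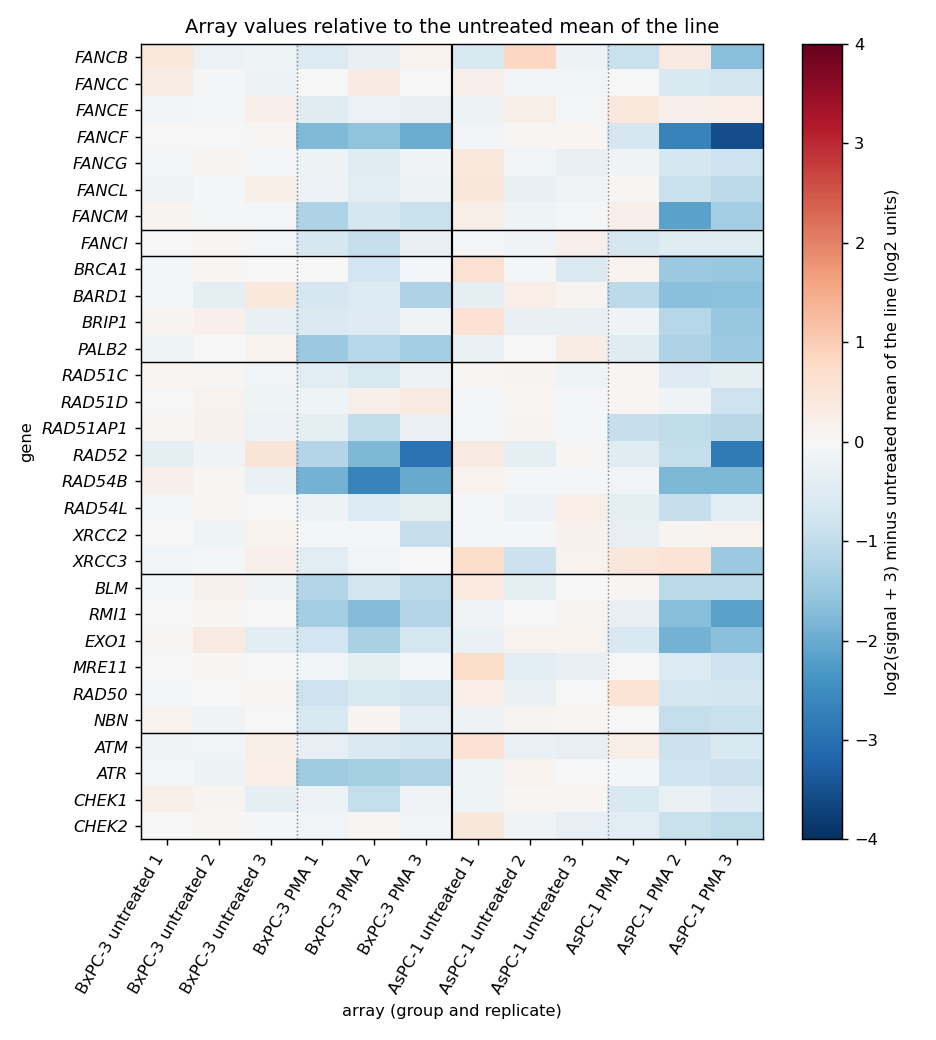
Each array's log2(signal + 3) minus the mean of the untreated arrays of its line, for the 30 measured members (rows, ordered by role) and 12 arrays (columns); blue is lower and red higher. In AsPC-1 the column of PMA replicate 1 is paler than those of PMA replicates 2 and 3.

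Each treated array was also set against the untreated array of its own passage. In BxPC-3, 29, 25 and 25 of the 30 members were lower after PMA at passages 7, 9 and 11, against 55.3%, 49% and 48.5% of all genes. Members lower by more than 1 log2 unit numbered 7, 9 and 8 of 30, against 8.67%, 8.79% and 9.03% of all genes. In AsPC-1, 24, 28 and 29 were lower at passages 8, 10 and 12, against 53.4%, 58.3% and 55.8% of all genes, but members lower by more than 1 log2 unit numbered 0, 10 and 13 of 30, against 7.38%, 11.2% and 11.8%. The passage 8 pair, which holds AsPC-1 PMA replicate 1, was therefore low in direction for most members and small in size.

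**Figure D3:**
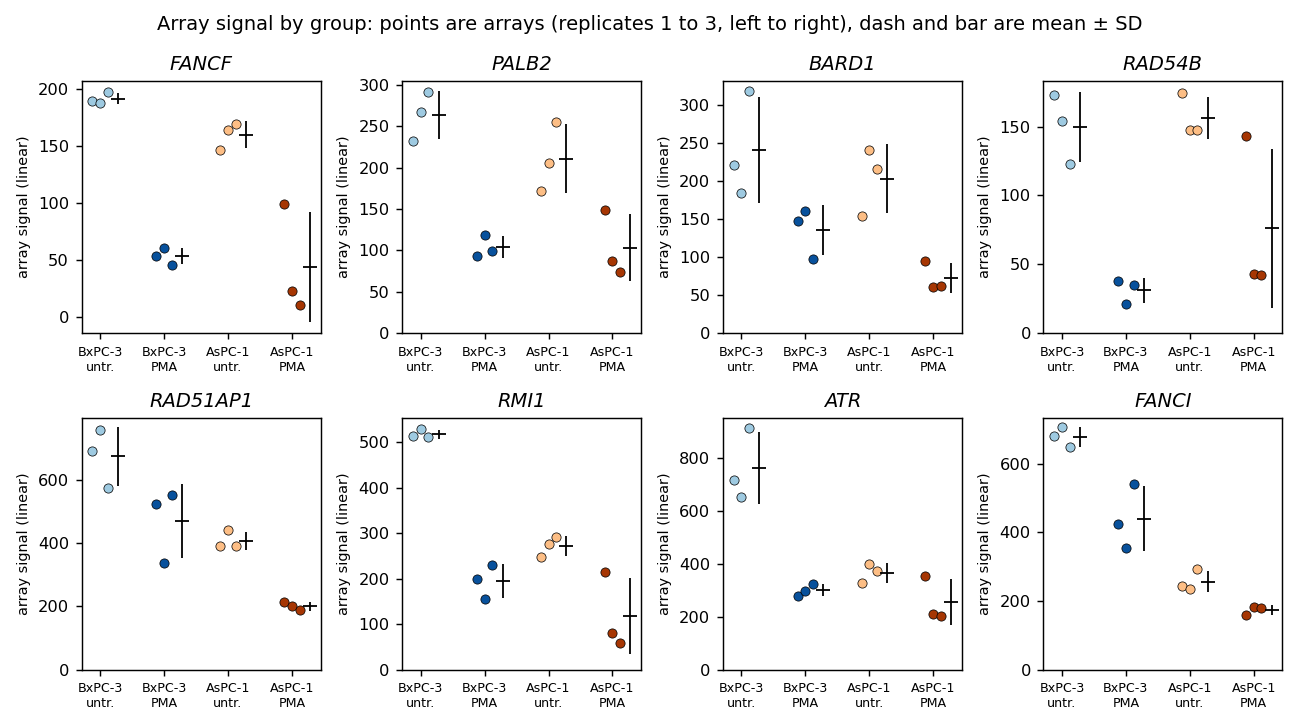
Array signal on a linear axis starting at 0 for FANCF, PALB2, BARD1, RAD54B, RAD51AP1, RMI1, ATR and FANCI in the 4 groups; points are arrays, and the dash with its bar is the mean ± SD (n = 3). All of these genes but ATR are separated downward after PMA in both lines, and ATR is so in BxPC-3 alone. AsPC-1 PMA replicate 1 is the highest treated AsPC-1 point for each gene but FANCI.

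The difference between the responses was tested as an interaction, BxPC-3 response minus AsPC-1 response. None of the 30 members passed in limma, against 0.310% of all genes higher and 0.186% lower (0.497% together), and 1 member had an unadjusted p under 0.05. That member was ATR, whose response was stronger in BxPC-3 by -0.77 ± 0.31 (adjusted p = 0.484). The differences ranged from -0.95 for RAD54B (SE 0.55, adjusted p = 0.67) to 0.72 for the checkpoint kinase CHEK2 (SE 0.34, adjusted p = 0.575), BRCA1 standing at 0.66 (SE 0.58, adjusted p = 0.82), with a median of 0.20 against 0.07 for all genes. The standard errors leave room for sizeable differences, so these values do not show that the lines responded alike. Without AsPC-1 PMA replicate 1, FANCF passed at 1.31 ± 0.33 (adjusted p = 0.0407), with the larger fall in AsPC-1; in that fit 4.49% of all genes were called, so 1 of 30 members is no more than the background.

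Before treatment, 6 members were higher in BxPC-3 than in AsPC-1 and 1 was lower, against 17.0% and 15.8% of all genes (32.7% together). FANCI differed most. It read 680, 705 and 649 in BxPC-3 and 244, 234 and 293 in AsPC-1, so the lines were far apart (log2 difference 1.40 ± 0.18, adjusted p = 4.88e-05). Its other probe sets gave smaller differences, 0.88 ± 0.26 and 0.49 ± 0.23. ATR read 716, 654 and 914 against 326, 399 and 371, also without overlap (1.04 ± 0.22, adjusted p = 0.00237). ATM, the double-strand break kinase, went the other way, at 142, 144 and 183 in BxPC-3 and 448, 247 and 237 in AsPC-1 (-0.92 ± 0.30, adjusted p = 0.031). The next 2 brightest ATM probe sets gave -0.48 ± 0.45 and -0.49 ± 0.45. With the mean of all probe sets of a gene, no member was called lower. The helicase BLM (1.05 ± 0.31, adjusted p = 0.0192), the nuclease MRE11 (0.87 ± 0.29, adjusted p = 0.0359), RAD51AP1 (0.72 ± 0.20, adjusted p = 0.0132) and RAD51C (0.66 ± 0.21, adjusted p = 0.0248) made up the rest. MRE11 read 335, 350.5 and 341 in BxPC-3 against 314, 137 and 148 in AsPC-1, where 1 array came near the other line. BLM, MRE11 and RAD51C lost the call without AsPC-1 untreated replicate 3 (adjusted p 0.0513, 0.129 and 0.0905), BxPC-3 untreated replicate 1 (0.0504, 0.0807 and 0.0826) or BxPC-3 untreated replicate 2 (0.0724, 0.0931 and 0.0764).

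In untreated cells 12 of 30 members had every BxPC-3 array above every AsPC-1 array and 2 the reverse, against 25.2% and 25.7% of all genes. The members' median line difference was 0.24, against -0.08 for all genes. The count called fell from 7 to 2 without BxPC-3 untreated replicate 2 (FANCI and ATR remained), to 3 without BxPC-3 untreated replicate 1 and to 4 without AsPC-1 untreated replicate 3, where 26.3%, 26.6% and 28% of all genes were called. It was 11 without AsPC-1 PMA replicate 1, against 40.9% of all genes, so the rise was not one of the members alone. ATM lost its call without AsPC-1 untreated replicate 1 (-0.63, adjusted p = 0.123), BxPC-3 untreated replicate 1 (-0.86, adjusted p = 0.0955) or BxPC-3 untreated replicate 2 (-0.87, adjusted p = 0.093).

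After PMA, 7 members were higher in BxPC-3 and 1 lower, against 18.4% and 15.3% of all genes (33.7% together). The share of members called in either direction was again below that of all genes. FANCI (1.30 ± 0.18, adjusted p = 8.78e-05), RAD51AP1 (1.18 ± 0.20, adjusted p = 0.000388) and MRE11 (1.13 ± 0.29, adjusted p = 0.0088) were again higher and ATM (-1.03 ± 0.30, adjusted p = 0.0175) again lower. The other FANCI probe sets gave 1.13 ± 0.26 and 0.62 ± 0.23, and the next 2 brightest ATM probe sets -0.80 ± 0.45 and -0.74 ± 0.45. With the mean of all probe sets of a gene, no member was called lower here either. BRIP1, the BRCA1-bound helicase, read 113, 119 and 150 in BxPC-3 and 89.2, 43.2 and 32.9 in AsPC-1, without overlap (1.28 ± 0.34, adjusted p = 0.0104). BARD1 read 147, 160 and 97.6 against 94.6, 60.3 and 61.7 (0.87 ± 0.28, adjusted p = 0.0284). FANCM read 34.8, 52.6 and 44.5 against 40.6, 5.501 and 11.6, so the groups overlapped through AsPC-1 PMA replicate 1 (1.40 ± 0.45, adjusted p = 0.0272). A dimmer FANCM probe set gave the opposite direction (-1.97). NBN, the third subunit of the MRE11 complex, also overlapped (0.72 ± 0.26, adjusted p = 0.0428). FANCM, BARD1 and NBN each lost the call without AsPC-1 PMA replicate 2 (adjusted p 0.12, 0.0936 and 0.16), AsPC-1 PMA replicate 3 (0.082, 0.0883 and 0.145) or BxPC-3 PMA replicate 2 (0.0925, 0.11 and 0.187).

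Among treated arrays 8 of 30 members were separated with BxPC-3 higher and 3 with BxPC-3 lower, against 23.0% and 20.5% of all genes. The median line difference was 0.53 against 0.03 for all genes. RAD54B stood at -1.03 (adjusted p = 0.0575); it was among 3 members called lower, beside 5 called higher, when arrays were centred on their medians, and the split was 6 higher and 3 lower under quantile normalization. Without AsPC-1 PMA replicate 3, 4 members were higher and 4 lower (ATM, RAD54B, RAD52 and RAD50), and without AsPC-1 PMA replicate 2, 5 were higher and 2 lower, so the split of directions rested on single arrays. In these 4 fits, in the order given, 33%, 35.3%, 29.4% and 29.2% of all genes were called. The count called was 17 without AsPC-1 PMA replicate 1, 4 without BxPC-3 PMA replicate 2 and 5 without BxPC-3 PMA replicate 3, against 40.9%, 28.3% and 27% of all genes; ATM lost its call without either of the last 2 (adjusted p = 0.0523 and 0.0634).

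**Figure D4:**
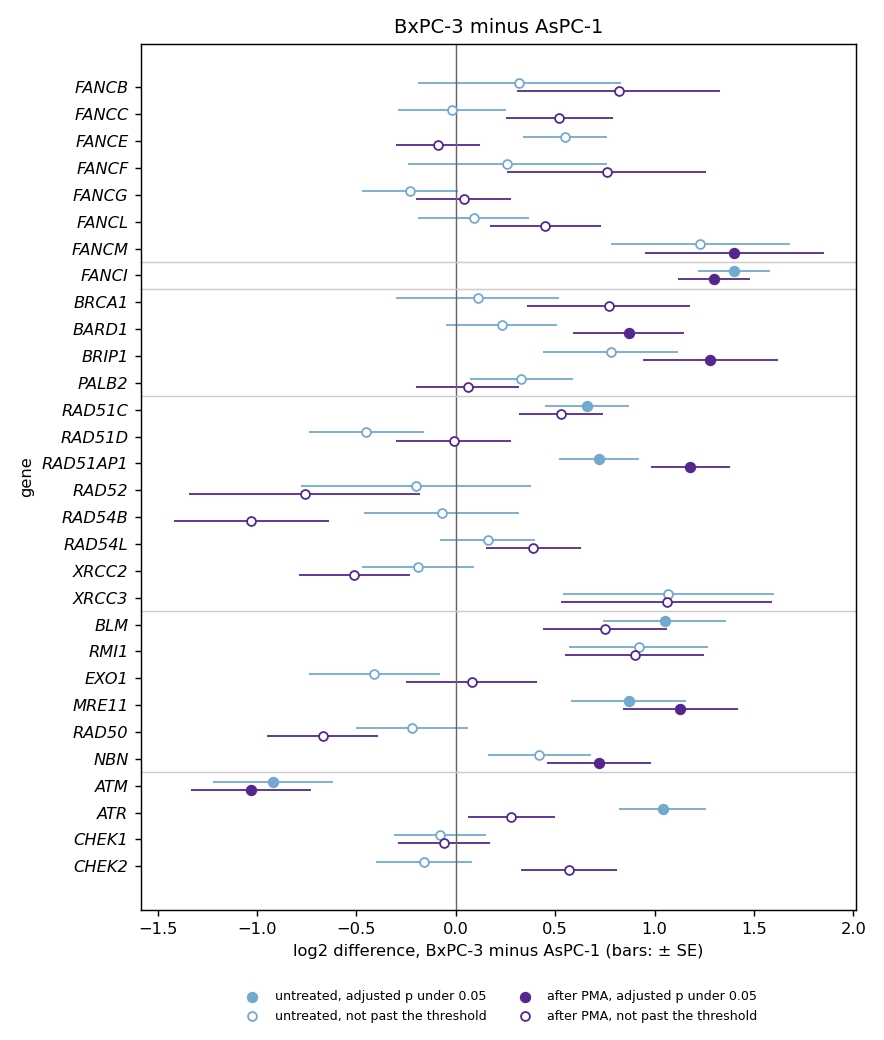
Log2 difference of signal, BxPC-3 minus AsPC-1, for the 30 measured members in untreated cells and after PMA, with bars of ± SE; filled points passed an adjusted p under 0.05. FANCI lies near 1.40 and 1.30 and ATM near -0.92 and -1.03 in the untreated and treated comparisons.

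A wider list of 55 further crosslink repair and recombination genes, of which 49 were tested, was set beside the members. In BxPC-3, 34 of 49 were negative, 4 fell and 1 rose (3.40% and 2.61% of all genes), with a median of -0.35. FAN1, a nuclease recruited by the FANCD2-FANCI pair, read 242, 202 and 221 untreated and 44.9, 52.8 and 45.9 after PMA (-2.14 ± 0.31, adjusted p = 0.00161). The resection nuclease DNA2 (-0.95 ± 0.22, adjusted p = 0.0205) and SFR1 (-0.89 ± 0.24, adjusted p = 0.043) also fell, as did USP1 (-0.53 ± 0.14, adjusted p = 0.0475), while the proteasome and BRCA2-binding subunit SEM1 rose (0.50 ± 0.12, adjusted p = 0.0313). In AsPC-1, 40 of 49 were negative, with a median of -0.31, and 1 fell and 1 rose (0.732% and 1.21% of all genes): USP1, the enzyme that removes ubiquitin from FANCD2, fell (-0.67 ± 0.14, adjusted p = 0.0343), and the crosslink endonuclease subunit ERCC1 rose (0.91 ± 0.19, adjusted p = 0.0285). Without AsPC-1 PMA replicate 1, 11 fell and 2 rose in BxPC-3 (9.3% and 5.75% of all genes), and 19 fell and 2 rose in AsPC-1 (13.6% and 6.1%).

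Genes of S phase, 24 tested of 25 listed, were measured beside these because repair transcripts vary with replication. After PMA 19 of 24 were negative in BxPC-3 (median -0.34; 1 fell, E2F8) and 22 of 24 in AsPC-1 (median -0.53; 1 fell, CCNA2, a cyclin), where 3.40% and 0.732% of all genes fell. Without AsPC-1 PMA replicate 1, 3 fell in BxPC-3 (9.3% of all genes), and 9 fell and 1 rose in AsPC-1 (13.6% and 6.1%). In untreated cells 14 of 24 were higher in BxPC-3 and none lower, with a median of 0.84, and after PMA 16 of 24 were higher and none lower, with a median of 1.03; 17.0% and 18.4% of all genes were higher. With all arrays 15.8% and 15.3% of all genes were lower. Without AsPC-1 PMA replicate 1, 18 were higher and 1 lower in both comparisons. Of all genes 21.3% were then higher and 19.7% lower in untreated cells, and 23.9% and 17% after PMA. The median of the S phase genes had the same sign as that of the Fanconi and recombination genes in each of these 4 comparisons; their part in the results was not tested.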

How the data were processed

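Total RNA of 12 cultures was hybridised to 1-colour Affymetrix arrays of 54675 probe sets. The deposited table holds linear signal intensity per probe set, made by the authors with MAS5, per the submitters' processing notes; other steps are not given in the sources used here. Probe sets were named from GEO's platform annotation: 41091 carried 1 symbol, 1801 several (not used, including 2 shared by RAD54B and FSBP) and 11721 none, beside 62 controls; 41043 of the named ones matched a RefSeq gene. Array number, not counts, limits precision.

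Values were taken as log2(signal + 3), so folds of dim genes are understated. A gene was tested if its brightest probe set exceeded the array's 40th percentile on at least 3 arrays. The 4 groups were fitted together in limma 3.58.1 (R 4.3.3; lmFit, contrasts, eBayes with trend), leaving 8 residual degrees of freedom. P-values were adjusted by Benjamini-Hochberg over 16110 genes, with a threshold of 0.05. The fit was tested on simulated data. An exact permutation test of 3 against 3 cannot go below 0.1. Alternatives changed scaling, pseudocount, filter, probe set choice, trend, samples fitted, passage block and each array left out.

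The labels give treated and untreated cells the same passages. Arrays of one passage deviated together from their group means in AsPC-1, with correlations of 0.416, 0.208 and 0.16. In BxPC-3 the correlations were -0.054, -0.129 and -0.058. Whether passages were separate thaws is not given, so p-values measure the spread between these cultures.

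Members and lists were chosen with earlier results of these data known. Named are all members past the threshold, up to 10 per comparison and at least 4 (filled by the largest differences without overlap), members whose probe sets disagree, and at most 4 other pathway genes per comparison. The last limit was exceeded for PMA in BxPC-3, where every called gene of the wider repair list and E2F8 were named. FANCF and FANCI in BxPC-3, the members named without AsPC-1 PMA replicate 1, and RAD54B after PMA were chosen after their values were seen. Figures were drawn with matplotlib 3.10.9.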

Additional observations from a re-analysis of the deposited data

How the results depend on the processing

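Over the 27 values named by the rule on members past the threshold, or with the largest differences, and their alternatives, 563 fits were labelled. In 473 the value stayed on its side of the threshold, in 89 it no longer passed and in 1 it newly passed. With a pass in either fit, 0 changed direction. Direction was not compared for values that passed in neither, among them all 80 for the difference of responses. Leaving out an array of a group outside the comparison cannot change the log2 difference, only its estimated spread. Values singled out after being seen, such as FANCF in BxPC-3, are not among the 27. For PMA in BxPC-3 (4 members called, with 6.01% of all genes), a pseudocount of 16 gave 7 and fitting the arrays of the comparison alone gave 13. In those fits 7.26% and 22.2% of all genes were called. Leaving out 1 array gave 2 to 12 members, beside 2.05% and 15.1% of all genes in the same fits. For PMA in AsPC-1 (3 called, with 1.94% of all genes), limma without a trend gave 0 and the arrays of the comparison alone gave 0. There 0.751% and 0% of all genes were called, and 16 and 10 members had an unadjusted p under 0.05. Leaving out 1 array gave 0 to 18 members. The 0 came in fits with 0.372% to 0.559% of all genes called, and the 18 with 19.7%. Line differences after PMA (8 called) numbered 5 with the mean of all probe sets of a gene, 5 with the arrays of the comparison alone and 4 to 17 on leaving out 1 array. The shares of all genes called in those fits were 30.2%, 27.2%, 28.3% and 40.9%. Untreated line differences (7 called) numbered 2 to 11 on leaving out 1 array, beside 26.3% and 40.9% of all genes. Differences of response (0 called and 1 at an unadjusted p under 0.05) numbered 0 to 1, the 1 beside 4.49% of all genes. With passage as a replicate block, the counts were 9 for PMA in BxPC-3, 10 for PMA in AsPC-1, 8 between untreated lines, 7 after PMA (NBN lost, adjusted p = 0.0501) and 0 for the difference of responses. Under that block 10.4%, 5.58%, 32.7%, 33.9% and 0.795% of all genes were called. Centring arrays on their medians shifted the median of all genes by 0.14 for PMA in BxPC-3, 0.22 for PMA in AsPC-1 and -0.13 for the lines after PMA; the members' medians under it were -0.30, -0.41 and 0.40, against all-gene medians of 0.13, 0.13 and -0.10. FANCB, RAD52 and XRCC3 were above the dim-gene limit on 9 of 12 arrays and FANCM on 11.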

Other observations

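Of the 30 measured members, 17 had more than 1 probe set. A second FANCF probe set gave -0.66 ± 0.33 for PMA in BxPC-3 and -1.11 ± 0.33 in AsPC-1, both smaller than the values reported for this gene. A second ATR probe set gave -1.26 ± 0.24 in BxPC-3, close to the reported -1.32. Both further BARD1 probe sets were negative for PMA in AsPC-1 (-1.23 ± 0.30 and -1.04 ± 0.30).

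The probe sets of FANCM disagreed on the line difference after PMA. The probe set used gave 1.40 and 2 others gave 1.29 and 1.30, whereas a dimmer probe set with a mean signal of 10.7 gave -1.97 ± 0.37. In untreated cells the probe set used for NBN gave 0.42 and 3 others gave 1.23, 1.11 and 0.73, against -0.81 ± 0.36 for a dimmer probe set with a mean signal of 17.0. BARD1 gave 0.23 and 0.13 from 2 probe sets and -1.03 ± 0.30 from the third. No transcript or isoform is assigned to these probe sets here.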
